A study of Mus musculus with 4 samples.

Results

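Plat, Plau, Plaur, Serpine2, Htra1, Htra3, Prss23 and Prss35 are 8 of the 32285 genes counted in single-cell libraries of the mouse ovary. They code for secreted or cell-surface proteins of the plasminogen activator system or of serine protease families. They were chosen by their UMI counts across ovarian cell types and conditions in the same 4 libraries, with earlier results in view, so that their levels by cell type are given below as a description and without a test. Plat and Plau code for the tissue-type and the urokinase-type plasminogen activator, Plaur for the receptor that holds urokinase at the cell surface, and Serpine2 for protease nexin-1, a serpin that blocks thrombin and both activators. Htra1 and Htra3 code for secreted serine proteases of the HtrA family, and Prss23 and Prss35 for secreted members of the trypsin-like serine protease family.

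Plasminogen activators cut plasminogen, which reaches the follicle from plasma, into plasmin, a protease of broad specificity that degrades fibrin and matrix proteins and activates matrix metalloproteases. Serpins act as suicide substrates: the protease cleaves a loop of the serpin and stays covalently bound to it. In the ovary this system is best known from the wall of the follicle before ovulation, where activators, receptors and inhibitors are made by different cells, and HtrA proteases are known for cleaving matrix proteins and for limiting signals of the TGF-beta family.

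The ovaries came from 8-week-old female littermates, dissociated whole and sequenced with a 10x Genomics 3′ kit. There were 2 libraries of Fosl2F/F mice, which carry floxed Fosl2 alleles without Cre and are given as WT in one label, and 2 of Fosl2cKO mice, in which Cre driven by the Cyp19a1 promoter acts on the same floxed alleles in granulosa cells (GCs). Fosl2 codes for a subunit of the transcription factor AP-1, and the comparison asks how its loss in GCs changes the transcripts of the ovary. The sources give 2 animals per group, so each library is taken to be 1 mouse, though no label ties a library to an animal, and p-values measure the spread between these libraries.

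Quality filters left 8150 and 19575 cells of the Fosl2F/F ovaries and 6760 and 7053 of those labelled Fosl2cKO, with 104304591 to 111314200 UMIs (unique molecular identifiers, each marking 1 captured RNA molecule) per library. Fosl2F/F replicate 2 stood apart, with a median of 3656 UMIs per cell against 11177 to 12465 in the other libraries, and libraries shared 15 to 81 barcodes in pairs. Fosl2 itself was at 161 and 167 CPM (UMIs scaled to 1000000 UMIs of the class) in the GC-like cells of the Fosl2F/F libraries and at 167 and 115 CPM in those labelled Fosl2cKO, so that replicate 1 of the latter lay at the Fosl2F/F level (a difference of -0.25 on the log2 scale with a standard error of 0.20, for which edgeR's quasi-likelihood test gave an adjusted p of 0.999). In the scheme of the floxed allele the loxP sites lie around exons 2 and 4, and whether the 3′ end read here is within the deleted part was not tested. Plb1, a phospholipase gene named after its values were seen, did separate the libraries by label, with 7 and 2 UMIs in the GC-like cells of the Fosl2F/F ovaries against 23812 and 11809 in those labelled Fosl2cKO, and passed as higher in edgeR in 19 of the 26 classes, clusters and GC subclasses compared below. Each direction given for Fosl2cKO is that of the libraries labelled so. Clustering without the 8 genes gave 13 classes named from marker genes and 4 unnamed clusters, which are called by number: clusters 1 and 16 had Enpep among their leading genes, cluster 2 had Abcb1b and Hao2, and cluster 12 had Myh11 and Actg2. All 10 listed granulosa markers were found in the GC-like cells, where their summed level was 7591 to 13886 CPM, against 173 to 2258 CPM in the other classes and clusters. The share of GC-like cells was 56.1% and 33.7% in Fosl2F/F ovaries, against 32.5% and 34.0% in those labelled Fosl2cKO.

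**Figure D1:**
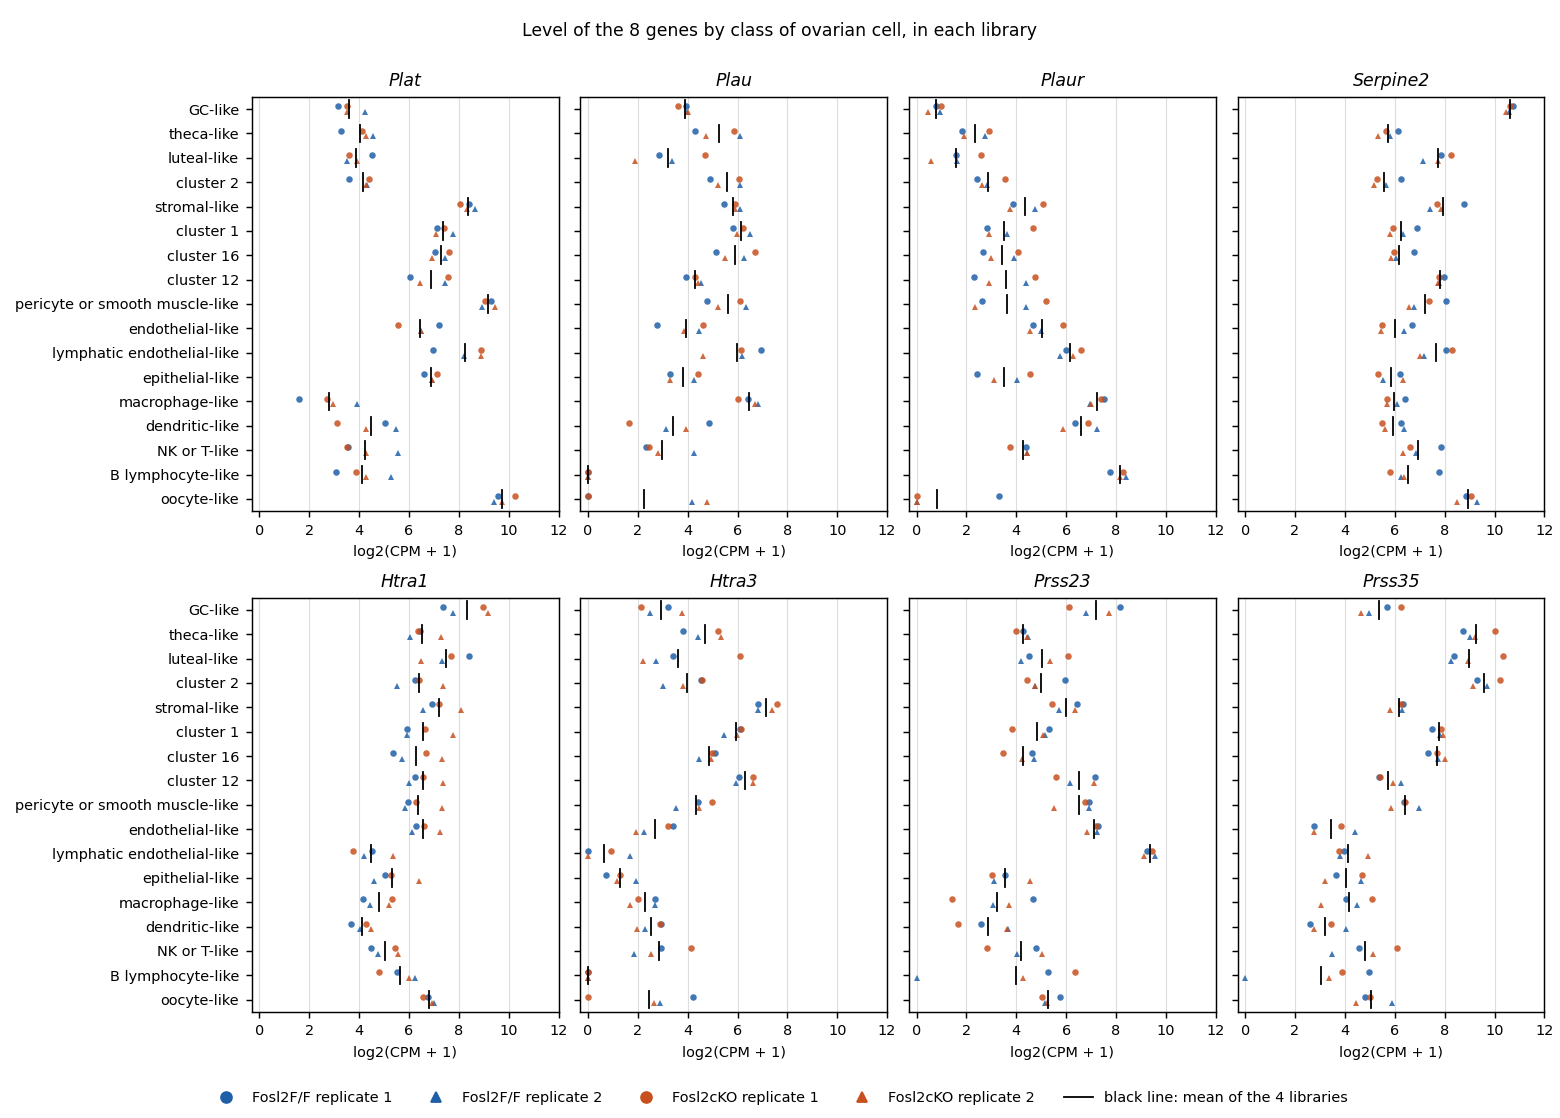
Level of each of the 8 genes in the 17 classes and clusters, as log2(CPM + 1), with 1 point per library (blue Fosl2F/F, orange Fosl2cKO, circles replicate 1, triangles replicate 2) and a black line at the mean of the plotted values. By the mean of the 4 libraries, Serpine2 and Htra1 were highest in GC-like cells and Plat in oocyte-like and pericyte or smooth muscle-like cells. Plaur was highest in B lymphocyte-like and macrophage-like cells and Htra3 in stromal-like cells. Prss23 was highest in lymphatic endothelial-like cells and Prss35 in cluster 2, theca-like and luteal-like cells.

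The 2 plasminogen activators had their highest levels in different classes, with lymphatic endothelial-like cells, stromal-like cells and cluster 1 among the higher ones of both. Plat (ENSMUSG00000031538, chromosome 8 of GRCm38 from 22757727 to 22782844, plus strand) was highest in oocyte-like cells, at 764 and 677 CPM in Fosl2F/F ovaries and 1222 and 859 CPM in those labelled Fosl2cKO, from 645 UMIs in 181 cells. Pericyte or smooth muscle-like cells followed with 619, 488, 533 and 705 CPM in the same order, a range that overlaps that of oocyte-like cells. Below them came lymphatic endothelial-like cells at 342 ± 167 CPM and stromal-like cells at 330 ± 53.0 CPM (mean ± SD, n = 4 libraries), whose ranges also overlapped. GC-like cells held 11.6 ± 4.30 CPM and macrophage-like cells, the lowest, 7.09 ± 5.07 CPM.

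To compare the share of cells with a UMI across depths, each cell was thinned to 2000 UMIs, and 503 and 3970 shallower cells of Fosl2F/F ovaries and 289 and 298 of those labelled Fosl2cKO were left out. The classes with the lowest levels show how often a UMI is found where the gene is at its least. On that scale Plat was found in 45.0 ± 3.36% of the pericyte or smooth muscle-like and 35.0 ± 5.21% of the stromal-like cells, against 1.50 ± 0.95% of the macrophage-like cells, the named class with the lowest level. The unthinned shares were 58.5%, 52.2% and 4.16%, at median depths per library of 2494 to 7046, 2065 to 7356 and 2283 to 8308 UMIs. Stromal-like cells held 35.6 ± 4.73% of all Plat UMIs that were counted in the cells kept.

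Plau (ENSMUSG00000021822, chromosome 14 from 20836660 to 20843385, plus strand) was low in all classes and had no single leading class. Macrophage-like cells had the highest mean, with 83.6 and 111 CPM in Fosl2F/F ovaries and 63.5 and 102 CPM in those labelled Fosl2cKO. Lymphatic endothelial-like cells at 71.7 ± 40.2 CPM, cluster 1 at 69.6 ± 14.6 CPM and stromal-like cells at 56.9 ± 10.5 CPM all overlapped with them in range. Cluster 16, at 33.8, 75.2, 102 and 43.7 CPM, did so as well. After thinning, 13.4 ± 2.79% of macrophage-like cells had a Plau UMI against 1.74 ± 2.44% of NK or T-like cells, and the unthinned shares were 25.6% and 1.63% (medians of 2283 to 8308 and 1364 to 3452 UMIs). No Plau UMI was counted among the 342343 UMIs of the 141 B lymphocyte-like cells, which allows a level of up to 8.76 CPM at 3 counts, for counting error only.

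Plaur (ENSMUSG00000046223, chromosome 7 from 24462484 to 24475968, plus strand) had its 3 highest mean levels in leukocyte-like classes, but was lower in NK or T-like cells. It was highest in B lymphocyte-like cells, at 218, 337, 313 and 283 CPM, though these values rest on 29, 9, 23 and 31 UMIs. Macrophage-like cells held 182 and 124 CPM in Fosl2F/F ovaries and 170 and 126 CPM in those labelled Fosl2cKO, from 1307 UMIs in all, and dendritic-like cells 101 ± 40.2 CPM. The ranges of macrophage-like and dendritic-like cells overlapped, and both lay below that of B lymphocyte-like cells. GC-like cells were at the other end, with 0.70, 0.94, 0.96 and 0.39 CPM, from 153 UMIs in 15770 cells.

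The share of cells with a Plaur UMI after thinning was 24.1 ± 6.37% in macrophage-like and 0.15 ± 0.06% in GC-like cells, and 47.4% and 1.07% before it, although GC-like cells were the deeper of the 2 classes (median 4588 to 19192 UMIs against 2283 to 8308). Plau and its receptor thus shared macrophage-like cells among their leading classes, while B lymphocyte-like cells had the highest level of the receptor and no UMI of the protease.

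The promoter of Plaur and a promoter of Prss23 hold the letters bound by AP-1, the factor of which Fosl2 codes for a subunit, and both are shown here for that reason. In the 250 bases before and 50 bases after each start listed by RefSeq (GRCm38.p6), the letters TGANTCA, which read as themselves on the other strand, occurred in 7.81% of 32851 promoters, and in at least 1 promoter of 8.97% of 27025 genes. Of the 8 genes, 6 were matched to at least 1 promoter, and Plat and Plau were not. The 30 bases around each match are printed 5′ to 3′ on the strand of the gene, with the match in capitals. The Plaur window spans chr7:24462403-24462432 on the plus strand, with the match starting 69 bases before the start. The Prss23 window spans chr7:89518332-89518361 on the minus strand, 146 and 169 bases before 2 of its listed starts. The promoters at its other listed starts held no match, and the share per gene takes no account of how many starts a gene has. No match was found in the windows of Serpine2, Htra1, Htra3 and Prss35, which says only that these letters are not there, and TGACGTCA and TGACATCA, searched on both strands, were in none of the windows of the 6 genes and in 1.79% and 3.62% of all promoters.
Plaur: acccctggagcTGACTCActctttagcaaa
Prss23: ggtcaccaggcTGACTCAgtcccccaggtg

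Serpine2 (ENSMUSG00000026249, chromosome 1 from 79794197 to 79861180, minus strand) was the only serpin among the 8 genes and had the most UMIs. GC-like cells held 1721 and 1512 CPM in Fosl2F/F ovaries and 1594 and 1401 CPM in those labelled Fosl2cKO, and accounted for 92.1 ± 2.38% of its UMIs. Every other class lay below that range. Oocyte-like cells came next at 494 ± 111 CPM, then stromal-like cells at 260 ± 117 CPM, and these 2 overlapped only through the stromal-like cells of Fosl2F/F replicate 1, at 431 CPM. The lowest level was in cluster 2, at 48.8 ± 17.9 CPM. After thinning, 89.3 ± 1.82% of GC-like cells had a Serpine2 UMI, against 9.95 ± 3.39% of theca-like cells, the lowest named class (97.7% and 42.6% unthinned, at medians of 4588 to 19192 and 4862 to 15533 UMIs). In oocyte-like cells the summed granulosa markers stood at 16.3, 20.5, 14.0 and 9.13% of their level in GC-like cells of the same library, and Serpine2 at 26.8, 41.1, 33.4 and 25.7%. The part of GC RNA in the Serpine2 level of oocyte-like cells was not tested.

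Htra1 (ENSMUSG00000006205, chromosome 7 from 130936111 to 130985660, plus strand) also had its highest mean over the 4 libraries in GC-like cells. They held 162 and 216 CPM in Fosl2F/F ovaries and 499 and 575 CPM in those labelled Fosl2cKO. Both libraries labelled Fosl2cKO lay above both Fosl2F/F libraries, and this spread makes the mean of 363 ± 205 CPM a poor summary. Luteal-like cells had 337 and 157 CPM in Fosl2F/F ovaries and 208 and 87.5 CPM in the others, and were above GC-like cells in Fosl2F/F replicate 1 only. Stromal-like cells held 158 ± 79.2 CPM, and dendritic-like cells were lowest at 16.7 ± 4.19 CPM. With cells thinned, 42.5 ± 17.0% of GC-like cells and 4.29 ± 1.30% of dendritic-like cells had a Htra1 UMI (77.6% and 11.9% unthinned, at medians of 4588 to 19192 and 2404 to 9360 UMIs). Htra1 overlaps Fgfr2 on the other strand, and whether reads were counted by strand is not given in the sources used here. Fgfr2 stood at 126, 164, 134 and 123 CPM in GC-like cells, with overlap between the conditions.

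Htra3 (ENSMUSG00000029096, chromosome 5 from 35652023 to 35679782, minus strand) was highest in stromal-like cells, which accounted for 40.5 ± 7.37% of its UMIs, followed by cluster 1 with 17.4 ± 3.28% and GC-like cells with 14.9 ± 10.6%. Stromal-like cells held 113 and 112 CPM in Fosl2F/F ovaries and 190 and 165 CPM in those labelled Fosl2cKO, and no other class or cluster reached 100 CPM in any library. Within them, a cluster of 208 cells led by Clec3b and C3 (cluster 22) stood at 525, 473, 531 and 504 CPM, above the 104 to 155 CPM of the larger stromal-like cluster in every library. This cluster held 13, 62, 98 and 35 cells, so that it was largest in Fosl2cKO replicate 1. Cluster 12 followed at 79.6 ± 19.7 CPM and cluster 1 at 61.0 ± 12.5 CPM, with overlapping ranges. Of the named classes with at least 1 Htra3 UMI, lymphatic endothelial-like cells were lowest, with 2 UMIs in 327 cells, and none was counted in B lymphocyte-like cells, which allows up to 8.76 CPM at 3 counts. After thinning, 60.4 ± 1.08% of the cells of cluster 22 (n = 3 libraries, since Fosl2F/F replicate 1 kept 12 cells, under the minimum of 20) and 24.1 ± 4.48% of all stromal-like cells had a Htra3 UMI, against 0.29 ± 0.45% of lymphatic endothelial-like cells (80.7%, 44.7% and 0.41% unthinned, over 4 libraries). By the mean of the 4 libraries, Htra1 and Htra3 were thus highest in different compartments, in GC-like and in stromal-like cells.

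Prss23 (ENSMUSG00000039405, chromosome 7 from 89507783 to 89527187, minus strand) was highest in lymphatic endothelial-like cells, at 612 and 763 CPM in Fosl2F/F ovaries and 688 and 551 CPM in those labelled Fosl2cKO. Its level in blood endothelial-like cells was 140 ± 17.5 CPM, below every lymphatic value. GC-like cells held 169 ± 99.2 CPM, spread over 288, 110, 67.4 and 208 CPM, and this largest class accounted for 71.4 ± 17.0% of Prss23 UMIs. Dendritic-like cells were lowest at 7.54 ± 4.71 CPM. The thinned share of cells with a UMI was 66.0 ± 3.02% in lymphatic endothelial-like, 24.1 ± 11.3% in GC-like and 1.21 ± 0.75% in dendritic-like cells, and the unthinned shares were 77.8%, 60.5% and 4.61% (medians of 2078 to 6362, 4588 to 19192 and 2404 to 9360 UMIs). Prss23os, which lies on the other strand of Prss23, was at 0.28 to 0.48 CPM in GC-like cells.

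Prss35 (ENSMUSG00000033491, chromosome 9 from 86743649 to 86758443, plus strand) was highest in cluster 2 and in the theca-like and luteal-like cells, which make steroids. Cluster 2, whose leading genes include Star, the gene of the cholesterol carrier into mitochondria, held 621 and 821 CPM in Fosl2F/F ovaries and 1189 and 562 CPM in those labelled Fosl2cKO. Theca-like cells had 428, 512, 1044 and 586 CPM and luteal-like cells 333, 301, 1280 and 484 CPM, and the ranges of the 3 overlapped. In each of them Fosl2cKO replicate 1 was highest. Luteal-like cells joined 2 clusters in unequal numbers: cluster 18, led by Akr1c18, held 114 and 342 cells in Fosl2F/F ovaries but 15 and 35 in the others, and its Prss35 level was 248 ± 90.6 CPM against 582 ± 528 CPM in cluster 10. Clusters 1 and 16 came next at 220 ± 28.3 and 209 ± 38.9 CPM, and dendritic-like cells were lowest at 8.97 ± 4.77 CPM. Thinned to equal depth, 66.9 ± 11.03% of the cells of cluster 2 and 62.8 ± 12.2% of theca-like cells had a UMI against 2.22 ± 1.42% of dendritic-like cells (89.5%, 91.6% and 5.85% unthinned, at medians of 3812 to 18048, 4862 to 15533 and 2404 to 9360 UMIs).

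Across the 27 classes, clusters and GC subclasses, Serpine2 and Htra1 had the highest correlation between any 2 of the 8 genes (Pearson r = 0.82 of log2(CPM + 1), means over libraries), and Plaur ran against both (r = -0.84 with Htra1 and -0.78 with Serpine2). These points share libraries and depth, and 11 of the 27 are subclasses and clusters of GC-like cells. GC-like cells thus weigh more than any other class, and the correlations are given as a description. The genes with the pattern most like each member, of 12588 compared, were Gprc5c, Spry4 and Tns2 for Plat (r of 0.87 to 0.88), Tmbim1, Slc36a4 and G0s2 for Plau (0.80 to 0.81), and Tor3a, Pde4b and Cerk for Plaur (0.91 to 0.94). Serpine2 was nearest to Fam13a, Slc26a7 and Csrnp3 (0.94 to 0.96), Htra1 to E130311K13Rik, Smim13 and Usp5 (0.90 to 0.92) and Htra3 to Dnm1, Sfrp1 and Prtg (0.86 to 0.88). For Prss23 they were Rgs7bp, Ddah1 and Ackr3 (0.83 to 0.85), and for Prss35 Me1, Map1lc3a and Tspan11 (0.87 to 0.88). None of the 8 genes was among the 3 nearest of another.

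Within GC-like cells Serpine2 and Htra1 had their highest mean in the same cluster, GC cluster 5, Prss23, Plau and Htra3 in atretic-like GCs, and Prss35 in mural-like GCs. GCs were clustered again, without the members, into cumulus-like, mural-like, atretic-like, mitotic-like and mitotic-antral-like subclasses and 6 unnamed clusters. Serpine2 was spread over nearly all of them, from 1182 ± 75.9 CPM in cumulus-like GCs to 1909 ± 191 CPM in mural-like GCs and 2050 ± 340 CPM in GC cluster 5, which was led by Kcne2 and Grem1. Its ranges in mural-like GCs and GC cluster 5 overlapped, and cumulus-like GCs lay below both in every library. The exception was GC cluster 10, led by Dgkb and Rrad, with 433 ± 155 CPM and a granulosa marker sum of 21.3 to 36.8% of that of all GC-like cells.

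Htra1 had its lowest level outside that cluster in cumulus-like GCs, at 93.5, 128, 189 and 204 CPM, and higher levels in GC cluster 5 (257, 323, 632 and 913 CPM) and mitotic-antral-like GCs (200, 251, 772 and 758 CPM). Prss23 was highest in atretic-like GCs, at 697, 432, 258 and 529 CPM, a subclass named for Ghr, Itih5 and other markers of atresia. In each library this was above every other GC subclass, of which mitotic-antral-like GCs were lowest on average at 55.7 ± 25.2 CPM. Prss35, in contrast, was highest in mural-like GCs at 162, 110, 405 and 84.6 CPM, while cumulus-like GCs held 9.23 ± 4.30 CPM. Plat was low in all of them and had its highest named-subclass level in cumulus-like GCs, at 31.9, 33.9, 28.1 and 30.7 CPM, above the 9.39 ± 3.57 CPM of mural-like GCs. Plau was at 33.1 ± 9.62 CPM in atretic-like and 26.6 ± 3.51 CPM in cumulus-like GCs, and these overlapped.

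**Figure D2:**
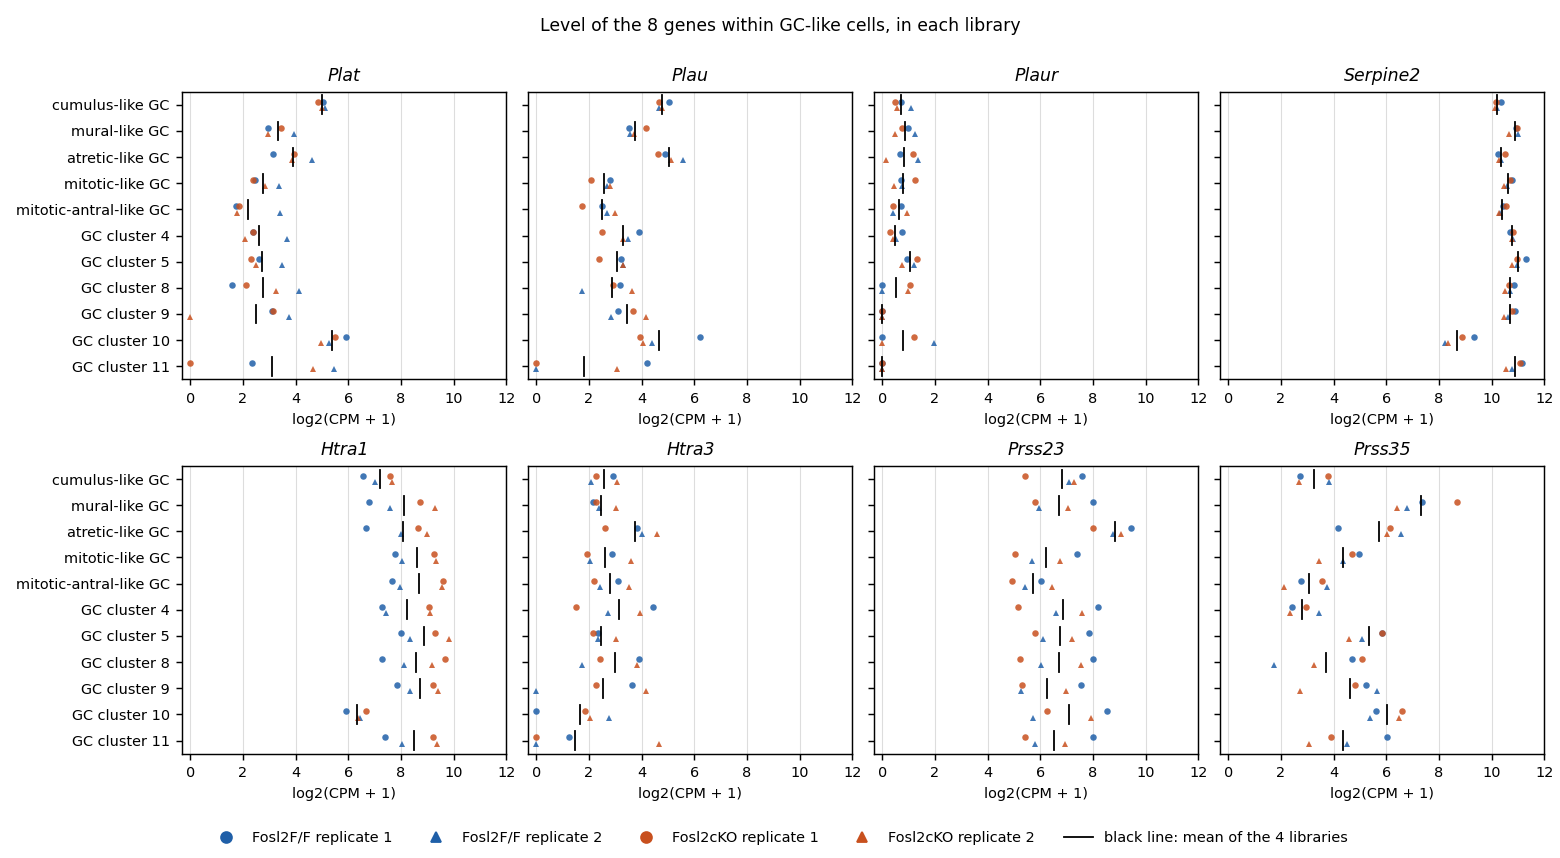
Level of each of the 8 genes in 11 subclasses and clusters of GC-like cells, as log2(CPM + 1), with 1 point per library (blue Fosl2F/F, orange Fosl2cKO, circles replicate 1, triangles replicate 2) and a black line at the mean of the plotted values. Serpine2 was high throughout except in GC cluster 10, Prss23 was highest in atretic-like GCs and Prss35 in mural-like GCs, and the Htra1 points of the libraries labelled Fosl2cKO lay to the right of the Fosl2F/F points in all rows but GC cluster 10.

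The order of the libraries was also shared between GC subclasses. For Prss23, Fosl2F/F replicate 1 and Fosl2cKO replicate 2 were the 2 highest libraries in 11 of 11 GC subclasses and clusters, which separates the replicates of each condition rather than the conditions. Htra3, low in GCs, had the same 2 libraries highest in 8 of 11. Htra1 was lowest in Fosl2F/F replicate 1 in 11 of 11.

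Conditions were compared with the UMIs of each class summed per library, 2 libraries against 2, in 26 classes, clusters and GC subclasses with at least 20 cells in every library. GC-like cells and their subclasses hold the same cells, so these are not independent tests. The threshold was a Benjamini-Hochberg adjusted p below 0.1 over all genes of the class together with an absolute log2 fold change above 0.25. Of 173 tests of the 8 genes, 1 passed, where 0.0627% of all 282424 gene tests did. An unadjusted p under 0.05 was found in 41 of the 173, against 5.45% of all gene tests. Of these 41, 20 were of Htra1, which was tested in 24 classes, clusters and subclasses. The genes were chosen with these libraries known, so the counts describe them and are not evidence for the choice.

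The gene that passed was Htra1, which was higher in the libraries labelled Fosl2cKO. It passed in mitotic-antral-like GCs, a subclass named for Cox4i2, Slc16a3, Ldha and other genes. None of the leading genes of this subclass was a listed mitotic marker such as Top2a or Mki67, so its name does not mark dividing cells. Htra1 stood there at 200 and 251 CPM in Fosl2F/F ovaries and at 772 and 758 CPM in those labelled Fosl2cKO. The 2 groups did not overlap, and the replicates of each were close (226 ± 36.4 and 765 ± 9.88 CPM, SD, n = 2 libraries each). The log2 fold change was 1.71 ± 0.16 (standard error, as after ± in all condition differences below), with an adjusted p of 0.0711 from edgeR, and 2 of the 11194 genes tested in this subclass passed (0.0179%). The other was Plb1, with 1 and 0 UMIs against 398 and 420. Without Fosl2F/F replicate 1, which leaves 1 library in that group, the log2 fold change of Htra1 was 1.57. The call was lost with the replicate number as a block and at an adjusted p of 0.05. Over all alternatives the adjusted p ran from 1.24e-16 without a filter on low counts to 0.230 with the block. Fgfr2 on the other strand was at 112, 101, 121 and 120 CPM in these cells.

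In the other GC subclasses the differences in Htra1 did not pass in edgeR without a block. With the replicate number as a block, edgeR passed Htra1 in mitotic-like GCs (adjusted p = 0.0836) and GC clusters 5 (0.0277) and 8 (0.00134). No pairing of the libraries by replicate number was seen, and more gene tests passed over all classes with this block than without it. The edgeR values that follow are without the block. The log2 fold change was 1.73 (standard error 0.34, adjusted p = 0.418) in mural-like GCs, at 111 and 193 against 418 and 629 CPM. It was 1.38 (0.16, adjusted p = 0.194) in mitotic-like GCs, 1.31 (0.40, adjusted p = 0.886) in atretic-like GCs and 0.78 (0.22, adjusted p = 0.502) in cumulus-like GCs. GC cluster 4, led by Cited1 and Amh, had 154 and 171 against 541 and 550 CPM (1.66, standard error 0.21, adjusted p = 0.213), all by edgeR's quasi-likelihood test. GC cluster 10 was the exception, with 58.7 and 86.1 against 100 and 80.7 CPM and overlapping libraries. Over all GC-like cells the log2 fold change was 1.49 (0.20, adjusted p = 0.347), and with cells thinned 24.4% and 31.8% of them had a Htra1 UMI in Fosl2F/F ovaries against 54.2% and 59.4% in those labelled Fosl2cKO. DESeq2, run as an alternative, passed Htra1 in 9 classes, clusters and subclasses: GC-like cells (adjusted p = 2.51e-07), mural-like, mitotic-like and mitotic-antral-like GCs, GC clusters 4, 5 and 8, and, outside GCs, clusters 1 and 16, where 0.542% of all gene tests passed.

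**Figure D3:**
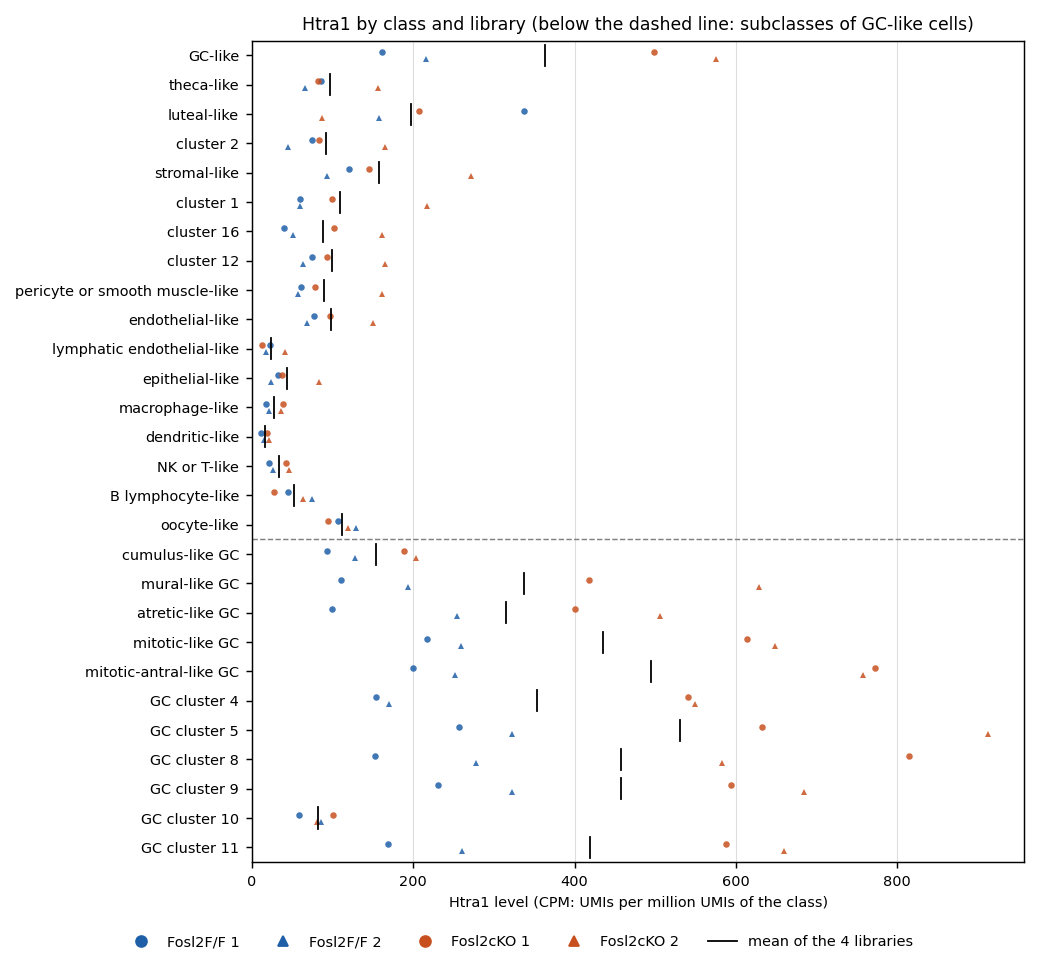
Htra1 level in CPM (linear axis from 0) in 17 classes and clusters and, below the dashed line, in 11 subclasses and clusters of GC-like cells, with 1 point per library and a black line at the mean of the 4 libraries. In mitotic-antral-like GCs the Fosl2F/F libraries sat at 200 and 251 CPM and those labelled Fosl2cKO at 772 and 758 CPM, while in luteal-like cells Fosl2F/F replicate 1 was highest at 337 CPM.

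Outside GCs Htra1 did not pass in edgeR without a block, and its values in the libraries labelled Fosl2cKO were again mostly above those of Fosl2F/F ovaries. With the replicate number as a block, edgeR passed Htra1 in cluster 1 (adjusted p = 0.0398) and cluster 16 (adjusted p = 0.0384). More gene tests passed over all classes with this block, for which no pairing was seen. Results below are without the block. In cluster 1 it was at 60.2 and 59.6 against 99.4 and 217 CPM (1.29 ± 0.33 on the log2 scale, adjusted p = 0.368 in edgeR), and DESeq2 passed it with an adjusted p of 0.0761. In cluster 16 it was at 39.7 and 51.3 against 102 and 162 CPM (1.45, standard error 0.27, adjusted p = 0.291 in edgeR), and DESeq2 passed it with an adjusted p of 0.0154. Both clusters had all 4 Htra1 levels below those of GC-like cells in the same library. Its libraries did not overlap, with Fosl2cKO higher, in 21 of the 24 classes, clusters and subclasses where it could be tested, where 19.8% of all gene tests showed this (14.0 to 29.4% by class). The exceptions were theca-like and luteal-like cells and GC cluster 10. In stromal-like cells Htra1 was at 121 and 92.9 against 145 and 272 CPM (0.95 ± 0.34 on the log2 scale, adjusted p = 0.660). In macrophage-like cells it was at 17.0 and 20.8 against 38.7 and 35.6 CPM (0.93, standard error 0.30, adjusted p = 0.709). In luteal-like cells the sign was the opposite, at -0.87 (standard error 0.56, adjusted p = 0.576), with the uneven clusters named above. Whether the effect of the condition differed between GC-like and stromal-like cells was tested with an interaction term: the difference was 0.58 for Htra1 (standard error 0.31, adjusted p = 1), and 0 of 17467 genes passed in edgeR (0.0%), with 557 at an unadjusted p under 0.05. Leaving out a library leaves 1 in its group, so the number of genes that pass in such a fit is not comparable and is not given.

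Values that bear on RNA from other cells are given beside this. In macrophage-like cells the granulosa markers summed to 4.42, 4.62, 3.08 and 2.16% of their level in GC-like cells of the same library, Serpine2 stood at 4.82, 4.42, 3.18 and 3.61% and Htra1 at 10.5, 9.67, 7.76 and 6.18%. In stromal-like cells the marker sum was 4.68, 4.74, 3.19 and 3.89% and Htra1 was at 74.7, 43.1, 29.2 and 47.3% of its GC-like level. The ratio of Htra1 to Serpine2 UMIs was 0.09, 0.14, 0.31 and 0.41 in GC-like, 0.20, 0.31, 0.76 and 0.70 in macrophage-like and 0.28, 0.55, 0.71 and 1.17 in stromal-like cells. In NK or T-like cells it was nearer to that of GC-like cells, at 0.09, 0.22, 0.44 and 0.58, as it was in dendritic-like cells, at 0.16, 0.19, 0.41 and 0.45. Htra1 in NK or T-like cells stood at 13.2, 11.9, 8.48 and 8.00% of its GC-like level, beside a marker sum of 10.3, 5.74, 5.64 and 4.23% and Serpine2 at 13.3, 7.66, 6.08 and 5.71%. The part of free RNA in the difference between conditions outside GCs was not tested.

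Serpine2 had a log2 fold change of -0.14 in GC-like cells (standard error 0.19, adjusted p = 0.999). Libraries labelled Fosl2cKO were lower without overlap in 11 of the 25 classes, clusters and subclasses tested, where 13.5% of all gene tests showed this. These were found within GCs (cumulus-like GCs and GC clusters 5 and 8) as well as outside them, and in GC cluster 5 the log2 fold change was -0.35 (standard error 0.17, adjusted p = 0.672). None passed in edgeR without a block or in DESeq2, and 6 had an unadjusted p under 0.05 in edgeR. With the replicate number as a block, edgeR passed Serpine2 in NK or T-like cells (adjusted p = 0.0372). For this block no pairing was seen, and more gene tests passed with it over all classes. The values that follow are without the block. Endothelial-like cells had the lowest adjusted p, with 103 and 80.7 against 43.5 and 43.1 CPM (-1.07 ± 0.26 on the log2 scale, adjusted p = 0.203 in edgeR's test). The granulosa marker sum of endothelial-like cells was 514 and 339 against 191 and 192 CPM, also without overlap, and its part in this was not tested. NK or T-like cells had 229 and 116 against 97.0 and 79.9 CPM (-1.07, adjusted p = 0.322), with granulosa sums of 1430 and 484 against 428 and 340 CPM.

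**Figure D4:**
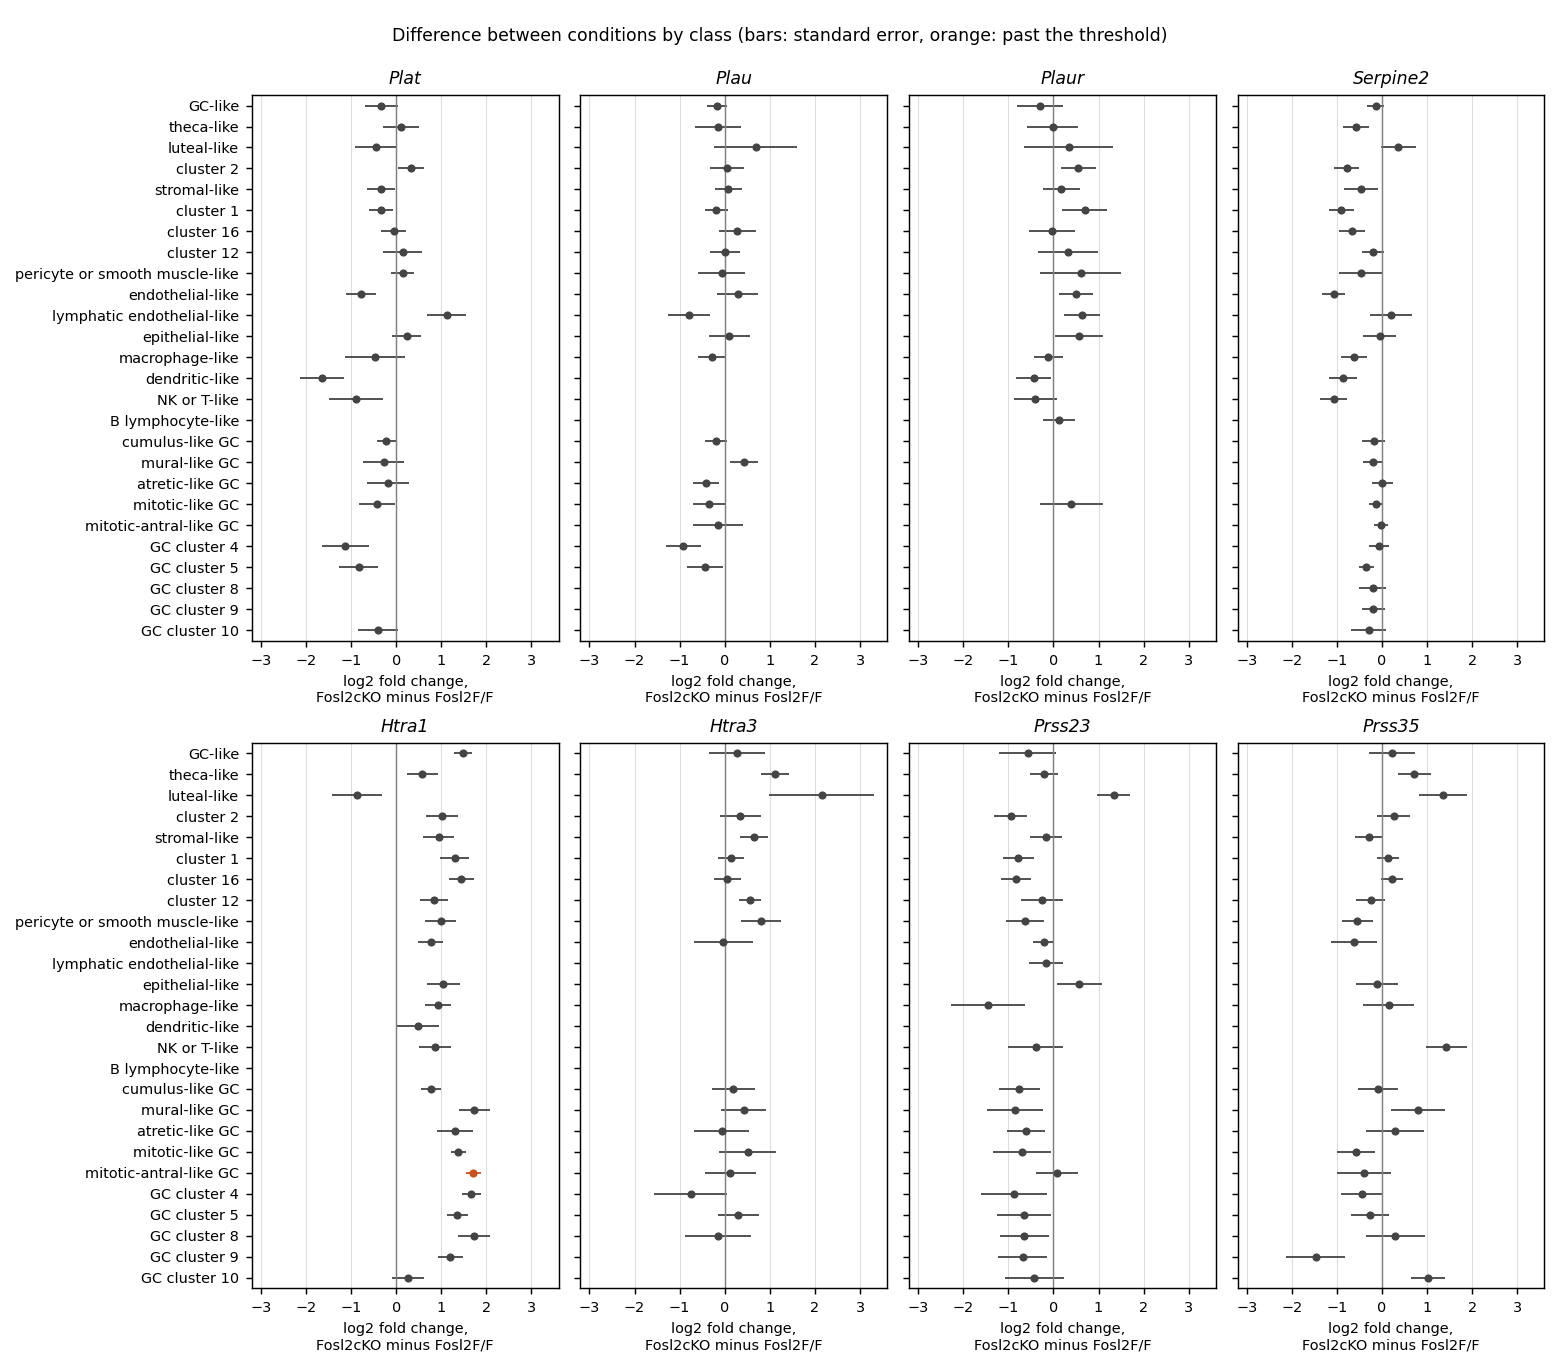
Log2 fold change of each of the 8 genes, Fosl2cKO minus Fosl2F/F, in the classes, clusters and GC subclasses where it was tested (points, with bars of 1 standard error, from edgeR; rows without a point were not tested). Orange marks the 1 point past the threshold, Htra1 in mitotic-antral-like GCs at 1.71, and Htra1 points lie right of 0 in 23 of 24 rows.

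The plasminogen activators and the receptor did not pass in any class by edgeR or DESeq2. An unadjusted p under 0.05 in edgeR was found in 3 of 22 tests of Plat, 1 of 20 of Plau and 0 of 17 of Plaur. Together these were 4 of 59 tests (6.78%), a share close to the 5.45% of all gene tests. Plat had its lowest adjusted p in dendritic-like cells (log2 fold change -1.65, standard error 0.49, adjusted p = 0.635), at 31.6 and 44.2 against 7.59 and 18.6 CPM and on 62 UMIs in all. In stromal-like cells it was at 339 and 395 against 267 and 318 CPM (-0.34, adjusted p = 0.999), without overlap, and in lymphatic endothelial-like cells at 125 and 297 against 477 and 470 CPM (1.12, standard error 0.43, adjusted p = 0.879). Plau differed by -0.29 (standard error 0.31, adjusted p = 0.932) in macrophage-like cells, with overlap. Plaur differed there by -0.11 (standard error 0.33, adjusted p = 0.985), and its libraries were higher without overlap in 1 and lower without overlap in 0 of the 17 classes tested, where 19.8% and 13.5% of all gene tests were.

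Htra3, Prss23 and Prss35 passed in no class by edgeR without a block either. They had an unadjusted p under 0.05 in 3 of 18, 4 of 24 and 4 of 23 tests, against 5.45% of all gene tests. DESeq2 passed Prss23 in luteal-like cells only and the others in no class. Over all classes 0.542% of gene tests passed in DESeq2, which is not the share in luteal-like cells alone. With the replicate number as a block, for which no pairing was seen, edgeR passed Prss35 in NK or T-like cells (adjusted p = 0.0477). More gene tests passed over all classes with the block than without it. Htra3 was higher without overlap in 4 of 18, a share close to the 19.8% of all gene tests, among them stromal-like cells (log2 fold change 0.65, standard error 0.31, adjusted p = 0.999) and theca-like cells, at 13.2 and 20.3 against 36.6 and 39.5 CPM (1.11, standard error 0.30, adjusted p = 0.634). Prss23 was lower without overlap in 5 of 24 (clusters 1, 2 and 16, endothelial-like and pericyte or smooth muscle-like cells), where 13.5% of all gene tests were, and higher without overlap in luteal-like cells. Its log2 fold change was -0.57 (standard error 0.63, adjusted p = 0.999) in GC-like cells and -0.61 (standard error 0.41, adjusted p = 0.886) in atretic-like GCs, both with overlap. In luteal-like cells Prss23 was at 22.0 and 17.0 against 66.5 and 40.0 CPM (1.34, standard error 0.37, adjusted p = 0.336). There it passed in DESeq2 with an unadjusted p of 0.00344 and an adjusted p of 0.0995, near the limit of 0.1. Of the 12817 genes tested in luteal-like cells, 3766 were higher without overlap (29.4%), the highest share of any class tested. These luteal-like cells came from clusters 10 and 18 in unequal parts. In cluster 10 Prss23 was at 46.3 and 19.6 against 65.3 and 41.8 CPM, with overlap. That overlap rests on Fosl2F/F replicate 1, which held 59 cells and 107938 UMIs of all genes in cluster 10. In cluster 18 Prss23 was at 21.2 and 6.75 against 85.7 and 25.4 CPM, without overlap and on 72, 22, 33 and 17 UMIs. Prss35 was at 0.72 (standard error 0.36, adjusted p = 0.999) in theca-like and 1.35 (standard error 0.52, adjusted p = 0.442) in luteal-like cells, the latter again with the uneven clusters, without overlap in either. It was higher without overlap in 5 of 23, a share close to the 19.8% of all gene tests, and lower without overlap in stromal-like cells (-0.29, standard error 0.30, adjusted p = 0.999) and GC cluster 9 (-1.47, standard error 0.65, adjusted p = 0.599). In mural-like GCs its libraries overlapped, with Fosl2cKO replicate 1 highest and replicate 2 lowest of the 4 (0.79, standard error 0.59, adjusted p = 0.996).

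Other genes of these families were tested in the same classes, where 0.0627% of all gene tests passed in edgeR, 0.542% passed in DESeq2 and 5.45% had an unadjusted p under 0.05. Of 20 further genes of the plasminogen system, 0 of 213 tests passed in edgeR, with 14 (6.57%) at an unadjusted p under 0.05, and 2 passed in DESeq2 (F3 in luteal-like cells and S100a10 in mitotic-antral-like GCs). Of 24 other serpins, 0 of 236 tests passed in edgeR, again with 14 (5.93%) at an unadjusted p under 0.05, and 1 passed in DESeq2 (Serpina5 in GC-like cells). Of 26 other trypsin-like serine proteases 1 of 130 tests passed in edgeR, with 15 (11.5%) at an unadjusted p under 0.05, and 3 in DESeq2, all of Masp1, a protease of the lectin pathway of complement. In edgeR Masp1 passed in GC cluster 9 and was lower there, at 136 and 118 against 11.6 and 33.9 CPM (log2 fold change -2.46, adjusted p = 0.0654), on 107, 19, 3 and 12 UMIs in a cluster of low depth. Over all GC-like cells Masp1 was at 99.0 and 42.1 against 27.4 and 32.0 CPM. The highest levels of the plasminogen system list were those of S100a10, part of a surface receptor for plasminogen, at 179 ± 43.8 CPM in GC-like and 341 ± 117 CPM in stromal-like cells, and of Lrp1, a receptor that clears complexes of proteases and serpins, at 137 ± 30.4 and 229 ± 35.0 CPM. Among other serpins Serpinh1, a collagen chaperone, led in both (594 ± 146 and 1036 ± 355 CPM), followed by Serpinb6a in GC-like cells (494 ± 149 CPM) and by Serping1, the inhibitor of complement C1, in stromal-like cells (348 ± 86.7 CPM). Masp1 and Htra2 led the other proteases in GC-like cells (50.1 ± 33.2 and 17.0 ± 2.76 CPM), and C1s1 and C1ra, proteases of complement C1, in stromal-like cells (107 ± 21.3 and 40.1 ± 7.002 CPM).

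Genes that respond to tissue dissociation, such as Fos and Egr1, were counted as a further list of 10. None passed in any of 254 tests in edgeR, where 26 (10.2%) had an unadjusted p under 0.05 against the 5.45% of all gene tests, and 2 passed in DESeq2 (Fos in GC cluster 5 and Hspa1a in endothelial-like cells). Their summed level in GC-like cells was 7868 and 7104 CPM in Fosl2F/F ovaries against 6678 and 6891 CPM in those labelled Fosl2cKO. In mitotic-antral-like GCs, where Htra1 passed, it was 5264 and 5132 against 4309 and 5781 CPM, with overlap.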

How the data were processed

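The 8 genes, the gene lists and the tests were chosen with earlier results of these data known. The authors deposited UMI counts per gene and barcode for each of the 4 libraries, as whole numbers without normalization. The sources name Cell Ranger and GRCm38. The matrix header gives version 7.1.0, which differs from the methods, and whether the CellBender correction described there is in the counts is not stated. No barcode held fewer than 500 UMIs, and 0 columns were left out.

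The study's own limits were applied to cells: a minimum of 500 genes, more than 1000 UMIs, mitochondrial UMIs below 10% and hemoglobin UMIs below 0.1%. Scrublet (scanpy 1.11.5) stood in for DoubletFinder, and top-scoring cells were dropped at a rate of 0.8% per 1000 cells of the library (614, 4723, 412 and 450 cells). Libraries were normalized with SCTransform and integrated with Seurat 5.3.0 by reciprocal PCA on 3000 features without the 8 genes, in 30 dimensions. Louvain clusters were made at a resolution of 0.8, and of 0.5 within GC-like cells, and named from fixed markers.

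UMIs were summed per class and library, filtered with filterByExpr, scaled by TMM and passed to edgeR 4.0.16 (glmQLFit and glmQLFTest, quasi-likelihood). The same step was also run on simulated counts with a set dispersion, and its outcome is not given or used here. CPM values in the text are without TMM. Named genes are the 8 genes, Fosl2, the 3 genes most correlated with each of the 8, the genes of 3 related lists that passed in any class, and the 2 highest genes of each list in GC-like and in stromal-like cells. Fgfr2 and Prss23os, which overlap members, and list genes that passed only in DESeq2 were added after their values were seen. Alternatives were DESeq2 1.42.0, no gene filter, each library left out, the replicate number as a block, cells over 2000 UMIs, 2 times the doublet rate and an adjusted p of 0.05 with no limit on fold. Crossing the numbers of the block was chosen after seeing the data. With 2 libraries a group, an exact permutation test of 1 value cannot go below a two-sided p of 0.333 and was not used. No pairing of the libraries by replicate number was seen (correlation of deviations -0.15 in GC-like and -0.07 in stromal-like cells). With 2 libraries a group both replicates give the same correlation, so it cannot decide whether the libraries were paired.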

Additional observations from a re-analysis of the deposited data

How the results depend on the processing

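In edgeR 177 gene tests passed over all classes, and 88 did at an adjusted p of 0.05 with no limit on fold, 6196 without a filter on low counts, 1531 in DESeq2 and 490 to 2672 with 1 library left out. The tests of the 8 genes that passed numbered 1, against 0, 23 and 10 under these 3 alternatives and 2 with cells over 2000 UMIs. With 1 library left out a group holds 1 library, so passes in those fits are not counted here. The replicate number as a block, for which no pairing was seen, gave 607 gene tests and 7 tests of the 8 genes in edgeR. These were 5 of Htra1, in mitotic-like GCs, GC clusters 5 and 8 and clusters 1 and 16, and 2 in NK or T-like cells. The latter were Serpine2 with an adjusted p of 0.0372 and Prss35 with 0.0477. Htra1 in mitotic-antral-like GCs then had an adjusted p of 0.230. A block with crossed numbers, chosen after seeing the data, gave 3263 and 16. For the interaction of condition and class, 0 to 18 genes passed with 1 library left out. The cause of these shifts was not tested. Averaging over cells in place of summed UMIs moved Plat in oocyte-like cells to 1244 CPM, Plaur in macrophage-like cells to 196 CPM and Prss23 in lymphatic endothelial-like cells to 770 CPM, and 2 times the doublet rate moved Plaur in B lymphocyte-like cells to 357 CPM. Log2 fold changes that changed sign with 1 library left out ranged from -0.0156 to 0.3291 for Plat in pericyte or smooth muscle-like cells (-0.0035 also below 0), -0.6338 to 0.0019 for Plau and -0.4174 to 0.2848 for Plaur in macrophage-like cells (0.0111 with cells over 2000 UMIs, in place of -0.11), -0.2707 to 0.0108 for Serpine2 in GC-like cells, -0.363 to 0.0302 for Prss23 in lymphatic endothelial-like cells, and -0.4024 to 0.7099 for Prss35 in cluster 2, where Fosl2cKO replicate 1 set the sign.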

Other observations

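Plaur had its highest library in Fosl2cKO replicate 1 in 12 of 17 classes and clusters, and Htra1 in Fosl2cKO replicate 2 in 13 of 17. Serpine2 was highest in Fosl2F/F replicate 1 in 12 of 17 and lowest in Fosl2cKO replicate 2 in 12 of 17. In pericyte or smooth muscle-like cells Plaur was at 5.10 and 19.9 CPM in Fosl2F/F ovaries and at 35.4 and 4.13 CPM in those labelled Fosl2cKO, so that the replicates of a condition differed more than the conditions.

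In luteal-like cells Htra3 was at 9.69 and 5.70 CPM in Fosl2F/F ovaries against 67.9 and 3.67 CPM in those labelled Fosl2cKO, a spread set by Fosl2cKO replicate 1 alone. Prss23 in the stromal-like cluster led by Clec3b and C3 stood at 276 ± 143 CPM, against 56.1 ± 26.2 CPM in the larger stromal-like cluster, and Prss35 ran the other way, at 17.2 ± 7.35 against 74.3 ± 11.8 CPM.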
